A study of Mus musculus with 12 samples.

Results

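Across all libraries 4 genes were followed: Tet1, Tet2 and Tet3, which encode the TET dioxygenases, and Tdg, which encodes thymine DNA glycosylase. They were taken by symbol from a table of 35976 gene symbols, and all 4 passed the filter on low counts that left 16014 genes for testing. The cells were mouse V6.5 embryonic stem (ES) cells, a male line, grown on gelatin in serum medium with LIF, the GSK3 inhibitor CHIR99021 at 3 µM and the MEK inhibitor PD0325901 at 1 µM, without further treatment. Total RNA was sequenced with paired ends, and 12 libraries fell into 4 groups of 3, lettered A, B and C. The N1300T groups, numbered 49 and 81, share the genotype Tet1KO Tet2 N1300T, the DKO group, numbered 41, has the genotype Tet1 Tet2 DKO (both genes knocked out), and the last group is Tet1 KO. The loss of Tet1 is thus common to all 12 libraries by their labels, so no group here has an intact Tet1, and Tet1KO stands for wild-type Tet2 in the study's question of what the N1300T form of Tet2 does. What the numbers 41, 49 and 81 denote (clones, cultures or cell lines) and whether the letters mark separate cultures is not given, so the p-values rest on the spread between libraries, which may be technical. DKO and Tet1KO have 1 set of 3 libraries each, so the genotype and any other property of those sets cannot be told apart.

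TET enzymes use iron and 2-oxoglutarate to oxidise 5-methylcytosine in DNA to 5-hydroxymethylcytosine and on to 5-formylcytosine and 5-carboxylcytosine. TDG cuts out the last pair of these bases, and base excision repair then puts an unmodified cytosine in their place. In mouse ES cells Tet1 and Tet2 are the TET genes known for high expression, whereas Tet3 is known for its part in the zygote and in later development.

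The residue named by the mutant label lies in the catalytic domain, whose iron is held by a histidine, any residue and an aspartate (the HxD motif) together with a more distant histidine. The stretch of coding sequence around it is shown for the TET genes because the N1300T label refers to 1 codon within it and because the genes can be compared there. Each line is 90 bases of GENCODE M21 coding sequence on GRCm38 (the assembly named mm10), read 5′ to 3′ on the coding strand and joined across 1 intron, with the histidine, aspartate and asparagine codons in capitals.
Tet2: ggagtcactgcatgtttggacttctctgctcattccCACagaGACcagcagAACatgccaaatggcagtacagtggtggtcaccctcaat
Tet1: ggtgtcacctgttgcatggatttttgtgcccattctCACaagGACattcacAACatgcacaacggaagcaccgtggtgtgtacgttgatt
Tet3: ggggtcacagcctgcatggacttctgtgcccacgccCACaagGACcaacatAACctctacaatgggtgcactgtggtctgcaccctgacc

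In transcript Tet2-201, which encodes 1912 residues, the asparagine codon AAC is codon 1300 and lies in exon 9 at chr3:133471361-133471363, minus strand. The histidine and aspartate of the motif are codons 1295 and 1297. In the longer Tet2-204 the same asparagine is codon 1308, so the label's number matches Tet2-201. All 3 TET genes carry the 3 marked residues with the same spacing: the asparagine is codon 1625 of Tet1-201 (chr10:62814457-62814459) and codon 955 of Tet3-202 (chr6:83373215-83373217). Over this stretch Tet2 shared 59 of 90 bases and 21 of 30 residues with Tet1, and 62 bases and 20 residues with Tet3. Counts summed over a gene hold no base calls, so the presence of the mutant codon in the N1300T libraries was not analysed here.

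Total counts per library ran between 31515011 (N1300T 49 C) and 57054862 (DKO A). Levels below are CPM, counts scaled to library size and TMM factors, given as mean ± SD with n = 3 (n = 6 for N1300T, both numbered sets together), and log2 fold changes are ± SE from 1 edgeR quasi-likelihood fit of all libraries, with p-values adjusted by Benjamini and Hochberg over all 16014 genes and called under 0.05. The labelled cell type was checked against its markers: 10 ES cell genes, Pou5f1, Sox2 and Nanog among them, summed to between 6728 and 7270 CPM in the N1300T and Tet1KO libraries and, lower, to between 6187 and 6668 CPM in the DKO libraries, and the part of that difference in the results was not tested. Of 10 fibroblast markers, which would show feeder cells, 5 passed the filter and the list summed to between 11.8 and 16.7 CPM. The highest were Thy1 (3.82 to 6.93 CPM), Pdgfrb (2.44 to 5.15), Col1a1 (1.02 to 4.26) and Twist1 (0.837 to 2.69). Postn, Dcn, Lum and Twist2 stood at 0.108 CPM or less. A list of 9 primitive endoderm markers summed to between 143 and 182 CPM, with Lama1 alone at 94.5 to 122. A list of 8 neural markers summed to between 118 and 168 CPM, with Tubb3 alone at 69.0 to 105.

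Per kilobase of exon, the levels of the 4 genes over all 12 libraries were ordered Tet1, Tet2, Tdg, Tet3, with Tdg read from its own row alone. That row took 19.5% to 24.3% of the counts it shares with near-identical copies (described below with Tdg), so the place of Tdg in any of these orders is uncertain. Tet1 averaged 10.5 ± 1.04 CPM per kilobase, Tet2 7.88 ± 1.63, Tdg 5.98 ± 0.492 and Tet3 0.387 ± 0.0836 (SD, n = 12). Tet3 was thus far below Tet1 and Tet2 in every group. The order above it was not equally clear in each group. In DKO, Tet1 stood at 11.3 ± 0.401 CPM per kilobase, while Tet2 at 5.60 ± 0.181 and Tdg at 5.49 ± 0.353 did not differ beyond their spread. In Tet1KO it was Tet1 and Tet2 that lay within their spread, at 9.88 ± 1.37 and 9.51 ± 1.15 CPM per kilobase. N1300T held 10.4 ± 0.998 for Tet1, 8.21 ± 0.676 for Tet2 and 6.23 ± 0.442 for Tdg.

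**Figure D1:**
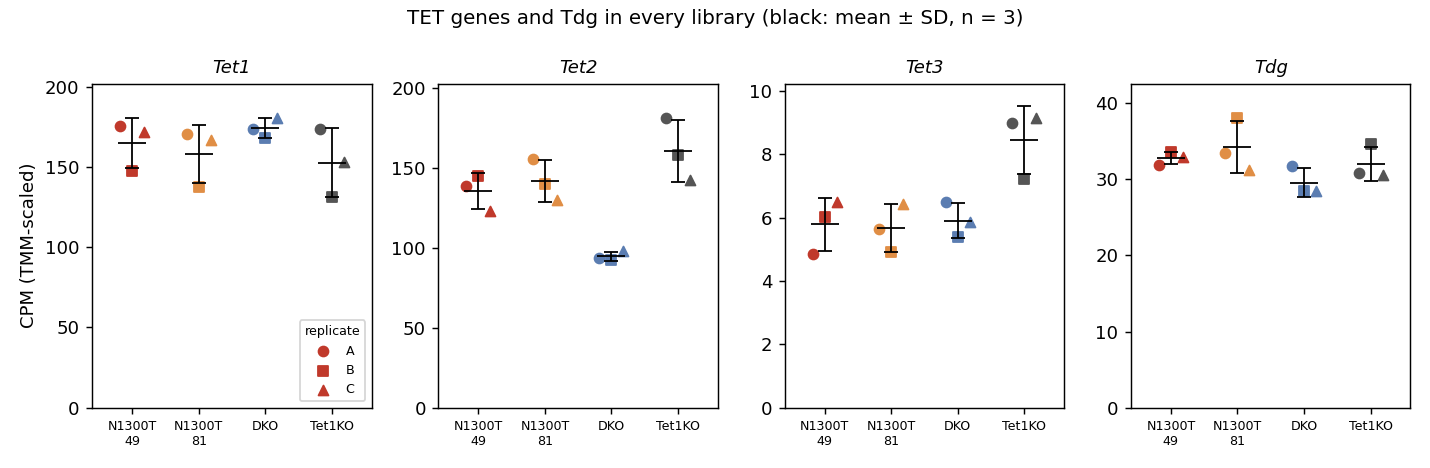
Level of Tet1, Tet2, Tet3 and Tdg in each of the 12 libraries, in CPM on axes that start at 0; symbols mark the replicate letter and black bars the mean ± SD of 3 libraries. The 3 DKO libraries lie below all others for Tet2 (92.0 to 97.9 CPM), and the 3 Tet1KO libraries lie above all others for Tet3 (7.23 to 9.14 CPM).

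Tet2 (chr3:133463677-133545136, minus strand) was the member that separated the groups most clearly. It had 138, 145 and 122.9 CPM in N1300T 49 A, B and C and 155, 139.9 and 129.6 CPM in N1300T 81, against 93.7, 92.0 and 97.9 CPM in DKO and 181, 158 and 142 CPM in Tet1KO. The DKO libraries were below every other library, and the N1300T libraries overlapped both each other and Tet1KO. How many of all genes set a group apart in this way was not counted. In DKO, Tet2 fell by 0.76 ± 0.09 on the log2 scale against Tet1KO (95% interval -0.94 to -0.58, adjusted p = 1.43e-05), to 0.590 of the Tet1KO level. Of all tested genes, 15.0% were called in that comparison, 7.86% higher and 7.12% lower, and Tet2 was the 88th of 16014 by p. The DKO libraries still held 3781 to 5583 counts of Tet2, so a transcript from the locus was abundant in cells labelled as its knockout, and the part of the gene that was removed is not given. In bulk RNA, fewer cells with the transcript and less transcript per cell cannot be told apart.

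In N1300T, Tet2 was higher than in DKO by 0.55 ± 0.08 (1.46-fold, 95% interval 0.39 to 0.71, adjusted p = 0.000472), and no N1300T library overlapped the DKO range. Called genes made up 3.73% of those tested in that comparison (1.70% higher, 2.02% lower), and Tet2 ranked 41st by p. Each numbered set showed it by itself: N1300T 49 was 0.52 ± 0.09 above DKO (adjusted p = 0.00526, 2.29% of genes called) and N1300T 81 was 0.58 ± 0.09 above DKO (adjusted p = 0.00109, 2.37% called). The Tet2 calls in DKO against Tet1KO and in N1300T against DKO held under all 22 alternatives of processing or left-out library.

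Against Tet1KO, the N1300T libraries were lower in Tet2 by an amount near the threshold. N1300T averaged 138 ± 11.4 CPM and Tet1KO 160.4 ± 19.3 CPM, a log2 difference of -0.21 ± 0.07 (95% interval -0.37 to -0.06) with an adjusted p of 0.0591 where 15.7% of genes were called (7.69% higher, 8.04% lower). The difference was -0.24 ± 0.09 in N1300T 49 (adjusted p = 0.0762, 10.9% called) and -0.18 ± 0.08 in N1300T 81 (adjusted p = 0.193, 12.2% called). It passed the threshold in 6 of 22 alternatives, among them DESeq2 (-0.21, adjusted p = 0.0463) and no filter on low counts (adjusted p = 0.00497). With a library left out it ran from -0.29 (without Tet1KO C, called) to -0.12 (without Tet1KO A, adjusted p = 0.379).

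**Figure D2:**
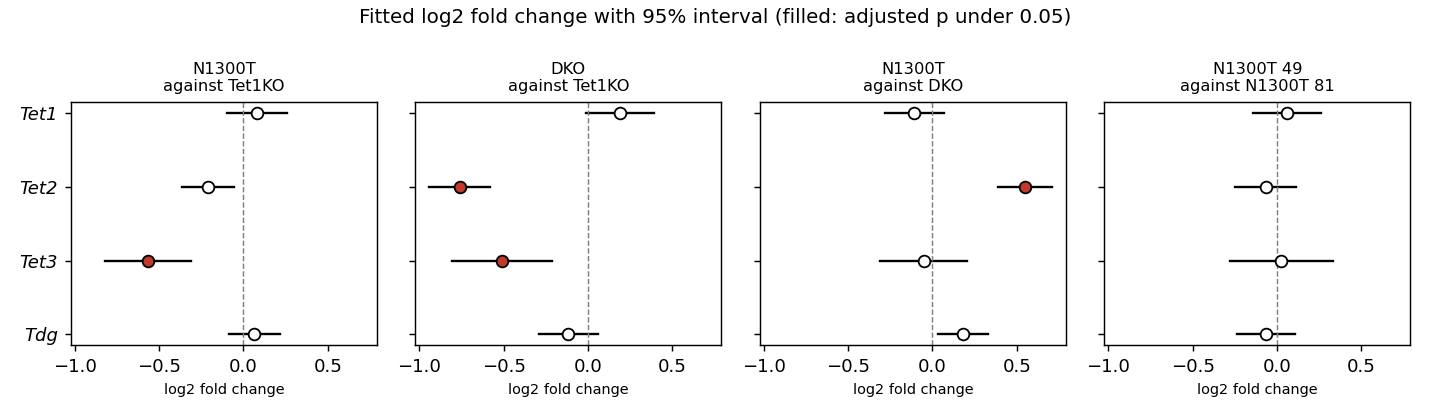
Fitted log2 fold change of the 4 genes in 4 comparisons (first-named group over the second), with 95% intervals; filled points have an adjusted p under 0.05. Tet2 is lower in DKO and higher in N1300T than in DKO, Tet3 is lower than in Tet1KO in both N1300T and DKO, and no member is called between N1300T 49 and N1300T 81.

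Between the N1300T sets 0.362% of genes were called (0.194% higher and 0.169% lower in 49), and none of the 4 members was among them. The differences of N1300T 49 from N1300T 81 were 0.06 ± 0.10 for Tet1, -0.07 ± 0.09 for Tet2, 0.03 ± 0.14 for Tet3 and -0.06 ± 0.08 for Tdg, with adjusted p between 0.909 and 0.985. The 95% intervals reached from -0.14 to 0.26 for Tet1 and from -0.25 to 0.11 for Tet2. Those of Tet3 and Tdg reached from -0.28 to 0.33 and from -0.23 to 0.11. Differences inside these intervals are not excluded by these libraries.

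Tet3 (chr6:83362373-83457208, minus strand) was the rarest of the 4, with 205 to 385 counts per library. It had 4.86, 6.04 and 6.48 CPM in N1300T 49 and 5.65, 4.92 and 6.44 CPM in N1300T 81, and in DKO 6.50, 5.38 and 5.86 CPM, against 8.99, 7.23 and 9.14 CPM in Tet1KO. Every N1300T and DKO library was below every Tet1KO library. The share of all genes that separate in this way was not counted. In N1300T, Tet3 fell by 0.56 ± 0.12 on the log2 scale against Tet1KO (95% interval -0.82 to -0.31, adjusted p = 0.00385). In DKO it fell by 0.51 ± 0.14 (95% interval -0.81 to -0.21, adjusted p = 0.0202). These comparisons share the Tet1KO libraries. Of all genes, 15.7% were called in the N1300T comparison and 15.0% in that of DKO. By p, Tet3 ranked 920th and 1595th of 16014 in them. Tet3 was called in both N1300T sets by themselves. It gave -0.55 ± 0.14 in 49 (adjusted p = 0.0189, 10.9% of genes called) and -0.58 ± 0.14 in 81 (adjusted p = 0.0121, 12.2% called). N1300T against DKO gave -0.05 ± 0.12 (adjusted p = 0.864, 95% interval -0.31 to 0.21).

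The chromosome that carries Tet3 was itself set apart in Tet1KO. The median of 701 tested chromosome 6 genes stood 0.18, 0.074 and 0.067 above its 12-library mean on the log2 scale in Tet1KO A, B and C, and between -0.043 and -0.022 in the other 9 libraries. The median log2 fold change of these genes was -0.14 in N1300T and -0.16 in DKO, both against Tet1KO, where all genes had medians of 0.0021 and -0.0055. The change of Tet3 was larger than that shift: 9.70% of chromosome 6 genes had a lower fold change in N1300T and 10.98% in DKO. When each library's chromosome medians were taken out, Tet3 was -0.43 ± 0.12 in N1300T with an adjusted p of 0.0243, and -0.37 ± 0.14 in DKO with one of 0.0908. With Tet1KO A also left out, neither was called (-0.42 ± 0.14, adjusted p = 0.0937, and -0.36 ± 0.16, adjusted p = 0.199). The uncorrected DKO call was also lost without Tet1KO A (adjusted p = 0.0782), Tet1KO C (0.0646), DKO B (0.0850) or DKO C (0.0711), whereas the N1300T call held with any 1 library left out. On chromosome 3 (Tet2) and chromosome 10 (Tet1, Tdg) the medians of all 12 libraries stayed between -0.015 and 0.043. Chromosomes 8 and 11, which hold no member, were also set apart in Tet1KO, with medians of 0.050 to 0.13 against -0.042 to -0.0042 in the other 9 libraries on chromosome 8, and of -0.12 to -0.028 against 0.0079 to 0.054 on chromosome 11.

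**Figure D3:**
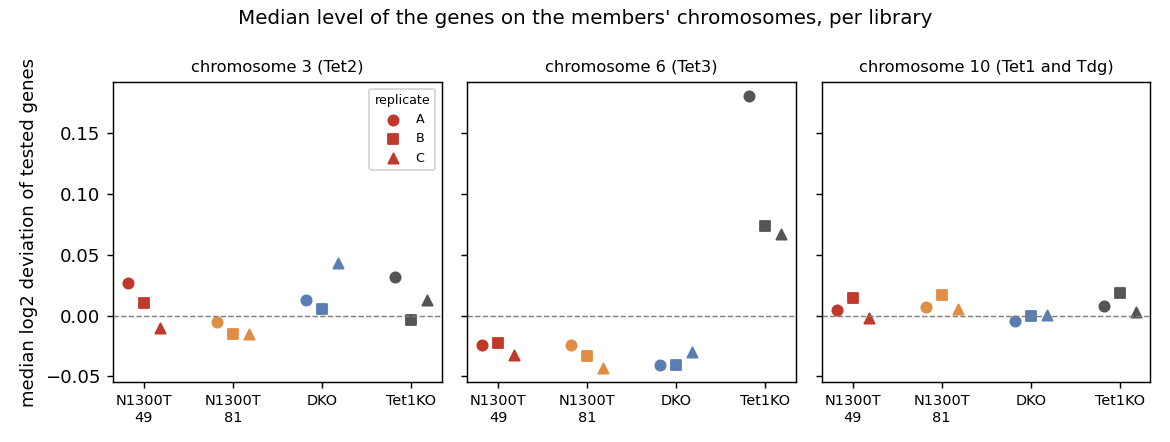
Median log2 deviation, from the 12-library mean, of the tested genes on the chromosomes that hold the members, 1 point per library. On chromosome 6 the Tet1KO libraries lie between 0.067 and 0.18 and the other 9 below 0, while on chromosomes 3 and 10 all libraries lie within 0.05 of 0.

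The nearest tested genes on each side were read as local context. Against Tet1KO, 15.7% of all genes were called in N1300T and 15.0% in DKO. All 3 on the low-coordinate side of Tet3 were lower than in Tet1KO, as Tet3 was. Mthfd2, a mitochondrial enzyme of folate metabolism 36.4 kb away, averaged 49.97 ± 2.39 CPM in N1300T and 47.7 ± 1.297 CPM in DKO, against 73.8 ± 12.7 CPM in Tet1KO. It fell by 0.56 ± 0.07 in N1300T (adjusted p = 5.92e-05) and by 0.63 ± 0.09 in DKO (adjusted p = 0.000123). Bola3, a factor of iron-sulphur cluster assembly 2.24 kb away, fell by 0.32 ± 0.08 (adjusted p = 0.0144) and by 0.37 ± 0.10 (adjusted p = 0.0156). Mob1a, an adaptor of Hippo pathway kinases, fell in N1300T by 0.30 ± 0.06 (adjusted p = 0.00357) and gave -0.21 ± 0.07 in DKO (adjusted p = 0.0635). On the other side none was called, although Dguok, which phosphorylates deoxyguanosine in mitochondria, had values close to those of Mob1a (-0.30 ± 0.11 with an adjusted p of 0.0619 in N1300T, -0.26 ± 0.12 with one of 0.162 in DKO). Stambp gave -0.18 and 0.071, and Gm21284 -0.30 and -0.037. With the chromosome medians taken out, Mthfd2 stayed called in both comparisons (-0.42 in N1300T, -0.48 in DKO), whereas Bola3 lost its call in both and Mob1a lost it in N1300T. Without Tet1KO A, Bola3 was not called in either comparison, and in DKO it also lost its call without DKO A or DKO B.

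Around Tet2, 5 of 6 neighbours were not called in either comparison with Tet1KO, where 15.7% (N1300T) and 15.0% (DKO) of all genes were. The log2 fold changes of these 5 lay between -0.11 and 0.06. They were 85.4 kb (Ppa2) to 1736 kb (Bdh2) from Tet2, whereas the neighbours of Tet3 were within 111 kb of it. The exception was Cxxc4, 691 kb from Tet2, whose product (IDAX) carries the CXXC zinc finger that TET2 itself lacks and binds TET2. It was scarce, with 128 counts over 6 libraries in N1300T (0.506 ± 0.188 CPM) and 77 in DKO (0.505 ± 0.141 CPM), against 16 in Tet1KO (0.132 ± 0.0930 CPM). Cxxc4 rose by 1.83 ± 0.46 in N1300T (adjusted p = 0.0119) and by 1.85 ± 0.50 in DKO (adjusted p = 0.0189). With these counts neither call held without Tet1KO A or Tet1KO B, and the DKO call did not hold without DKO B or DKO C (log2 range over all alternatives 1.54 to 2.57 in N1300T and 1.55 to 2.59 in DKO). Of the neighbours of Tet1, Stox1 rose in DKO against Tet1KO (0.80 ± 0.26, adjusted p = 0.0493, at a mean of 0.890 CPM, called in 7 of 22 alternatives), and none beside Tdg was called.

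**Figure D4:**
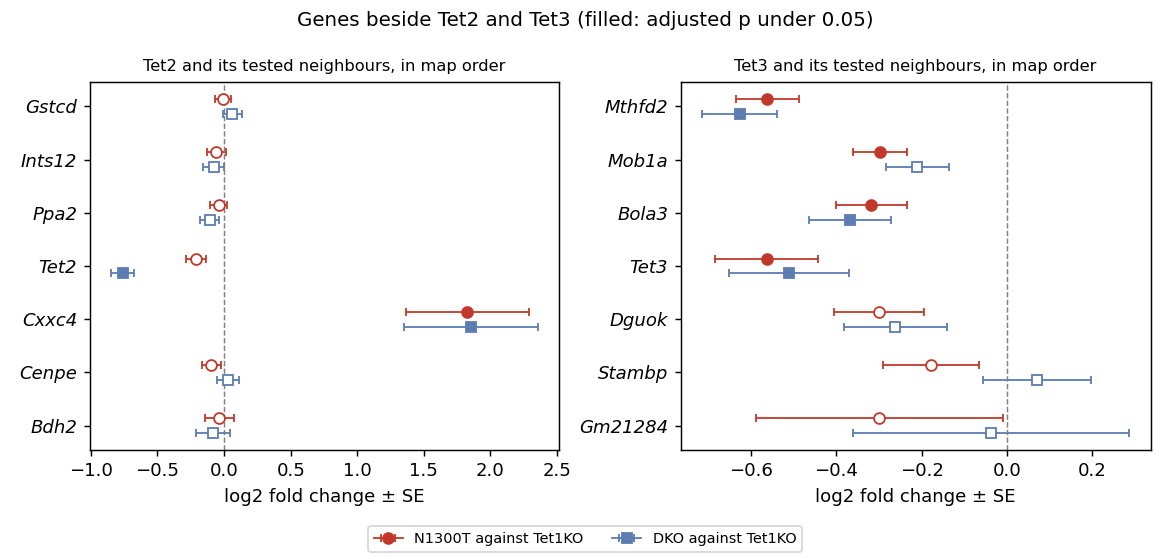
Log2 fold change ± SE of Tet2, Tet3 and their 3 tested neighbours on each side, in chromosome order, in N1300T against Tet1KO (circles) and DKO against Tet1KO (squares); filled points have an adjusted p under 0.05. Tet2 falls in DKO between neighbours that are not called lower and lie 85.4 kb (Ppa2) to 1736 kb (Bdh2) away. Tet3 lies beside Mthfd2, Mob1a and Bola3, which are lower as well (Mob1a not called in DKO). The neighbours of Tet3 lie 2.24 kb (Bola3) to 111 kb (Gm21284) away, so the panels span unlike distances.

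Tet1 (chr10:62804570-62887469, minus strand) was counted at a high level throughout, although all libraries are labelled as its knockout. It had 176, 147 and 172 CPM in N1300T 49, 170.3, 137 and 167 CPM in N1300T 81 and 174, 168 and 180.2 CPM in DKO, against 174, 131 and 153 CPM in Tet1KO. The groups overlapped throughout, and replicate B was the lowest of the 3 in each of the 4. N1300T differed from Tet1KO by 0.08 ± 0.08 (adjusted p = 0.562) and from DKO by -0.11 ± 0.08 (adjusted p = 0.515). DKO differed from Tet1KO by 0.19 ± 0.10 (adjusted p = 0.205, 95% interval -0.01 to 0.39). With no group of intact Tet1 and no stated deletion, the counts of the whole gene do not check the Tet1 label.

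Tdg (chr10:82629814-82650799, plus strand) was not called in any comparison. It had 31.9, 33.5 and 32.8 CPM in N1300T 49, 33.4, 38.0 and 31.2 CPM in N1300T 81 and 31.7, 28.5 and 28.4 CPM in DKO, against 30.8, 34.6 and 30.6 CPM in Tet1KO. N1300T gave 0.06 ± 0.07 against Tet1KO (adjusted p = 0.589) and 0.18 ± 0.07 against DKO (95% interval 0.03 to 0.33, adjusted p = 0.158), and DKO gave -0.12 ± 0.08 against Tet1KO (adjusted p = 0.379). All libraries of N1300T 49 were above those of DKO, while N1300T 81 overlapped DKO. The share of all genes with such a separation was not counted.

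The Tdg row holds only a part of the reads that match this gene. Gm9855, annotated as a processed pseudogene (chr10:42054113-42055306, minus strand), is 99.2% identical to a Tdg transcript over 1194 bases, and Tdg-ps on chromosome 15 is 98.7% identical over 2968 bases. Gm9855 took 61000 counts over the 12 libraries and Tdg-ps 416. Another annotated copy, Gm5597, is 99.3% identical over 1193 bases but is not among the counted gene symbols. Any reads assigned to it are missing from the sums here. Tdg was 19.5% to 24.3% of the 3 rows' sum in each library, so how reads were split among the copies is uncertain. Gm9855 averaged 111 ± 6.95 CPM in N1300T, 113 ± 3.05 CPM in DKO and 115 ± 7.13 CPM in Tet1KO, and was not called in any of the comparisons between these groups (adjusted p between 0.593 and 0.893). Summed over the 3 rows, the level was 146 ± 8.65 CPM in N1300T, 143 ± 2.88 CPM in DKO and 148 ± 9.13 CPM in Tet1KO. The sum gave -0.02 ± 0.05 in N1300T against Tet1KO, opposite in sign to Tdg alone, and 0.02 ± 0.05 in N1300T against DKO, where Tdg alone gave 0.18.

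**Figure D5:**
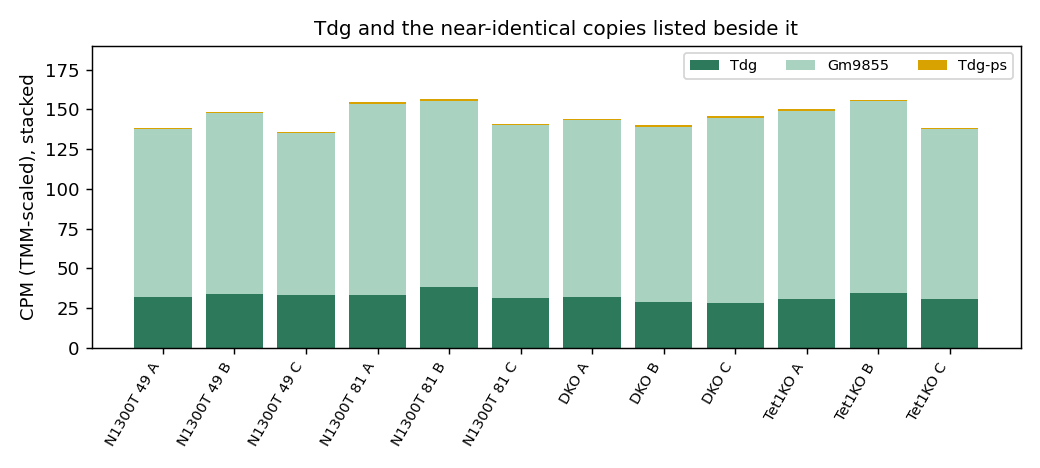
CPM of Tdg, Gm9855 and Tdg-ps stacked for each library, with bars from 0. Tdg is 19.5% to 24.3% of each bar and Gm9855 nearly all of the rest, and the groups overlap in height.

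Ratios of counts within a library, which no scaling between libraries enters, gave the following order. There were 4.33, 4.31 and 3.74 counts of Tet2 for each count of Tdg in N1300T 49, 4.65, 3.69 and 4.16 in N1300T 81 and 2.95, 3.23 and 3.45 in DKO, against 5.87, 4.57 and 4.65 in Tet1KO. DKO was below all other libraries. The log2 ratio was 0.37 higher in N1300T than in DKO (exact permutation test, two-sided, p = 0.0238, the smallest it can give for 6 against 3 libraries). It was -0.64 in DKO against Tet1KO (exact p = 0.1, the smallest for 3 against 3) and -0.27 in N1300T against Tet1KO (exact p = 0.0714). Tet3 per count of Tdg averaged 0.173 ± 0.0286 in N1300T and 0.200 ± 0.00974 in DKO, against 0.267 ± 0.0501 in Tet1KO. Its log2 difference from Tet1KO was -0.63 in N1300T (exact p = 0.0238) and -0.40 in DKO (exact p = 0.1), and N1300T against DKO gave -0.23 (exact p = 0.167). With Tdg and its copies summed as denominator, the last difference was -0.073 (exact p = 0.643), that of Tet3 in N1300T against Tet1KO was -0.54 (exact p = 0.0476) and that of Tet2 in N1300T against DKO was 0.52 (exact p = 0.0238). Over the 6 tests with Tdg alone as denominator the adjusted p was 0.0714 at the lowest, so none passed 0.05 after adjustment. The tests over the summed copies were not adjusted.

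The other DNA glycosylases, which like TDG remove single damaged or modified bases, numbered 10. None was called in N1300T against Tet1KO or DKO, where 15.7% and 3.73% of all genes were, and 1 was called in DKO against Tet1KO, where 15.0% of all genes were. In DKO, Ung, the uracil-DNA glycosylase, fell against Tet1KO by 0.18 ± 0.06 (adjusted p = 0.0385), to 87.9 ± 3.65 CPM, against 99.9 ± 4.60 CPM. That call held in 15 of 22 alternatives (log2 range -0.22 to -0.15) and was lost with library size alone, with no filter on low counts, and without N1300T 81 A, DKO A, DKO C, Tet1KO B or Tet1KO C. Smug1, which removes uracil and 5-hydroxymethyluracil, gave -0.02 in both, and Mbd4, a thymine glycosylase like TDG, gave -0.13 in N1300T and -0.06 in DKO. The median of the list was -0.06 in N1300T and -0.10 in DKO, against 0.0021 and -0.0055 for all genes.

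Of 13 genes for the repair steps after a glycosylase, 2 fell in N1300T against Tet1KO and 3 in DKO, and none rose, where 8.04% and 7.12% of all genes were called lower. Lig1, a DNA ligase, fell by 0.17 ± 0.04 in N1300T (adjusted p = 0.0149) and by 0.19 ± 0.05 in DKO (adjusted p = 0.0175). Polb, the polymerase that fills the gap and a gene of chromosome 8, fell by 0.26 ± 0.08 (adjusted p = 0.0428) and by 0.34 ± 0.10 (adjusted p = 0.0272). Hmces, which shields abasic sites in single-stranded DNA and lies on chromosome 6 with its shift in Tet1KO, fell in DKO by 0.27 ± 0.06 (adjusted p = 0.00479) and was not called with chromosome offsets (-0.13). The Polb calls were the least settled, with 10 of 22 alternatives in N1300T (log2 range -0.32 to -0.13) and 15 of 22 in DKO (-0.38 to -0.22), and both were lost with chromosome offsets (-0.16, adjusted p = 0.232, and -0.24, adjusted p = 0.105). Lig1 lost its N1300T call without Tet1KO A and its DKO call with library size alone or without DKO A or DKO C (adjusted p up to 0.0543 and 0.0911). Parp1 (-0.11 in N1300T, -0.21 in DKO) and the abasic endonuclease Apex1 (-0.05 and -0.18) were not called. The list's median was -0.05 in N1300T and -0.12 in DKO. None of the 13 was called between N1300T and DKO, where 3.73% of all genes were.

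Partners and modifiers of TET proteins included called genes in both directions, while most of the list was not called. Of 19 listed, 18 were tested: 4 rose and 1 fell in N1300T against Tet1KO, 3 rose and 2 fell in DKO against Tet1KO, and 1 rose and 1 fell in N1300T against DKO. Of all genes, 15.7%, 15.0% and 3.73% were called in these comparisons, and the list's median was 0.0019, 0.057 and 0.034. Wt1, a zinc finger factor known to bring TET2 to its targets, rose by 2.13 ± 0.22 in N1300T (3.07 ± 0.315 CPM, adjusted p = 3.23e-06) and by 1.74 ± 0.24 in DKO (2.32 ± 0.340 CPM, adjusted p = 9.22e-05), against 0.680 ± 0.267 CPM in Tet1KO. Sall4, a reader of 5-hydroxymethylcytosine, rose in N1300T by 0.19 ± 0.06 (adjusted p = 0.0447), while its relative Sall1, on chromosome 8, fell by 0.58 ± 0.07 (adjusted p = 2.07e-05), and in DKO by 0.51 ± 0.08 (adjusted p = 0.000417). Lin28a, an RNA-binding protein that also binds TET1, rose in N1300T by 0.15 ± 0.04 (adjusted p = 0.0218). The Wt1 and Sall1 calls held under all 22 alternatives, that of Sall4 in 10 (log2 range 0.12 to 0.26) and that of Lin28a in 18 (0.14 to 0.16), with losses without Tet1KO A for both.

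A pair of these partners set DKO apart. Ebf1, a DNA-binding partner of TET2 encoded on chromosome 11, averaged 5.41 ± 1.66 CPM in N1300T, against 11.1 ± 0.474 CPM in DKO, a log2 difference of -1.09 ± 0.12 (adjusted p = 4.68e-05), and it rose in DKO by 0.86 ± 0.15 against Tet1KO at 6.15 ± 1.71 CPM (adjusted p = 0.000724). It was also higher in N1300T 49 (6.89 ± 0.514 CPM) than in N1300T 81 (3.92 ± 0.156 CPM), by 0.81 ± 0.15 (adjusted p = 0.02). Prdm14, a pluripotency factor that promotes TET-driven demethylation, fell in DKO by 0.41 ± 0.09 against Tet1KO (adjusted p = 0.00586) and was 0.33 ± 0.08 higher in N1300T than in DKO (adjusted p = 0.0283). The Ebf1 and Prdm14 calls against Tet1KO and the Ebf1 call against DKO held under all 22 alternatives. The Prdm14 call against DKO held in 15 and the Ebf1 call between the N1300T sets in 17, with log2 ranges of 0.30 to 0.38 and 0.75 to 0.87, and the losses came from leaving out single libraries of the groups compared. Ogt, the O-GlcNAc transferase that binds TET proteins, was not called in either comparison with Tet1KO (-0.00072 in N1300T and -0.073 in DKO).

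Among 12 partners and modifiers of TDG, 1 was called in N1300T against Tet1KO, 0 in DKO against Tet1KO and 1 in N1300T against DKO, where 15.7%, 15.0% and 3.73% of all genes were called. Gadd45a, a stress protein reported to promote TDG activity, rose in N1300T by 0.41 ± 0.09 against Tet1KO (11.2 ± 0.736 against 8.40 ± 0.945 CPM, adjusted p = 0.00449). Its relative Gadd45g was lower in N1300T than in DKO by 0.97 ± 0.23 (0.810 ± 0.253 against 1.57 ± 0.176 CPM, adjusted p = 0.0276), and no listed gene was called in DKO against Tet1KO. The Gadd45a call held under all 22 alternatives and that of Gadd45g in 15 (log2 range -1.12 to -0.84), each loss with 1 library of either group left out. The genes that write and keep the mark were read beside them: of 5, Dnmt3a, a de novo methyltransferase, fell by 0.63 ± 0.07 in N1300T (adjusted p = 5.54e-06) and by 0.79 ± 0.08 in DKO (adjusted p = 4.69e-06), both against Tet1KO. Uhrf1, the cofactor of maintenance methylation, fell by 0.23 ± 0.05 (adjusted p = 0.0047) and by 0.25 ± 0.06 (adjusted p = 0.00722). Dnmt3b rose in DKO by 0.48 ± 0.11 (adjusted p = 0.00724), and Dnmt1 and Dnmt3l were not called. The Dnmt3a and Uhrf1 calls held under all 22 alternatives, and that of Dnmt3b in 21, the exception being without Tet1KO A (adjusted p = 0.0535). None of the 5 was called between N1300T and DKO, where 3.73% of all genes were.

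The genes whose pattern over the 12 libraries was nearest to each member were found by the root mean square difference of log2 CPM, each gene centred on its own mean, over 11714 genes. Nearest to Tet2 were Kcnj12 (0.100), Tspan15 (0.112) and Pmel (0.125), where the median gene differed by 0.321. Kcnj12 averaged 10.6, 12.2, 8.002 and 12.5 CPM in N1300T 49, N1300T 81, DKO and Tet1KO. Nearest to Tet3 were Acap3 (0.110), Prtg (0.114) and Fam20c (0.120), against a median of 0.306. Acap3 averaged 9.17, 9.36 and 10.05 CPM in N1300T 49, N1300T 81 and DKO, and 13.02 CPM in Tet1KO. Tet1 was nearest to Fam120b (0.0564), Zfp599 (0.0585) and Crybg3 (0.0663), and Tdg to Mpnd (0.0497), Gga2 (0.0538) and Tkfc (0.0554). The median gene differed from Tet1 by 0.199 and from Tdg by 0.169. A flat line would differ from Tet1 by 0.144, from Tet2 by 0.300, from Tet3 by 0.280 and from Tdg by 0.112. For each member the 3 nearest genes were closer than a flat line. They were picked as the nearest of 11714 genes, so being closer than a flat line or the median gene follows from that choice. It is no evidence of a shared pattern.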

How the data were processed

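Values were raw counts of reads per gene symbol, deposited by the authors in 1 table for the 12 libraries. The submitters' processing notes name mm10 as the build and DESeq2 as a tool; the sources used here give no aligner, counter or annotation, and do not say whether counting was stranded. Low counts were mostly even (20282 values of 2, 3467 of 3 and 9469 of 4), so a fit with all counts halved was among the alternatives. Libraries were grouped by their genotype labels and numbers. The 8 comparisons came from 1 quasi-likelihood fit with edgeR 4.0.16 (R 4.3.3, limma 3.58.1; TMM factors 0.979 to 1.02, filterByExpr by group, 8 residual and 9.11 prior degrees of freedom, biological coefficient of variation 0.0859), in which N1300T is the equal-weight mean of sets 49 and 81 and tests take their error from libraries. The 16014 genes kept held 99.97% of counts. CPM use the same factors. The step was tested on simulated data with 200 changed genes.

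The 4 genes, the lists and the tests were chosen with earlier results of these data known. Named beside the members were the called genes of each list, the 3 tested neighbours on each side, and the 3 genes of nearest pattern; uncalled list members were picked for their role. Positions, exon lengths and coding sequences came from GENCODE M21 on GRCm38; copies were sought by BLAST at 95% identity or more over at least 300 bases, and 93.9% of tested symbols had a chromosome. Ratios were tested by exact permutation over libraries (SciPy 1.17.1). Alternatives were RLE factors, library size alone, no filter on low counts, DESeq2 1.42.0, only the groups compared, a replicate block, halved counts, chromosome offsets and each library left out; Tdg summed with its copies and offsets without Tet1KO A were added after the data were seen.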

Additional observations from a re-analysis of the deposited data

Results flagged for a closer look

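Of the 4 genes, Tdg had 1 library apart from the rest of its group. Among the 6 N1300T libraries, N1300T 81 B stood at 38.0 CPM and the other 5 between 31.2 and 33.5 CPM, so that the gap to the nearest library was 0.652 of the whole range. It was the 1 of 6 quantities so examined (the 4 genes and the Tet2 and Tet3 ratios to Tdg) with such a gap, and each quantity has about a 1 in 20 chance of one. Summed with Gm9855 and Tdg-ps, the same library stood at 156 CPM and N1300T 81 A at 155 CPM. The cause was not tested.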

How the results depend on the processing

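Over 22 alternatives, Tet2 stayed called in DKO against Tet1KO (-0.84 to -0.67) and in N1300T against DKO (0.51 to 0.58), and Tdg was called in none of the comparisons. Tet2 in N1300T against Tet1KO passed the threshold with no filter on low counts (-0.21), under DESeq2 (-0.21) and with a replicate block (-0.21, adjusted p = 0.0140), and ran between -0.29 (without Tet1KO C, called) and -0.12 (without Tet1KO A, not called) when a library was left out; it was also called without N1300T 49 B or N1300T 81 A. Tet1 in DKO against Tet1KO was called with no filter on low counts (0.19) and with the block (0.20, adjusted p = 0.0251). Tet3 in DKO against Tet1KO lost its call with chromosome offsets (-0.37), and with offsets and Tet1KO A left out Tet3 lost it in DKO (-0.36) and in N1300T (-0.42); leaving out single libraries gave -0.61 to -0.45 in DKO. The cause of these losses was not tested.

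Same-letter libraries deviated together in part: 7 of 18 correlations of deviations from the group means were over 0.1 (range -0.042 to 0.31), none of them with DKO, and 10 of 12 libraries correlated best with one of their own letter, a hint from the data and not from the design. Only for N1300T 81 and Tet1KO were all 3 over 0.1, and there the block changed no call of the 4 genes. With the block 1497 genes were called in N1300T against DKO and 105 between N1300T 49 and 81, where 597 and 58 were called without it. With no filter on low counts these were 1481 and 244, and under DESeq2 1073 and 108. Leaving out a library gave 107 to 1053 genes called in N1300T against DKO, 1388 to 2575 in N1300T against Tet1KO and 1386 to 2575 in DKO against Tet1KO, and offsets without Tet1KO A gave 1323 and 1321 in the comparisons with Tet1KO.

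Several uncalled values changed sign. Tdg summed with its copies gave -0.024 in N1300T against Tet1KO, -0.072 in N1300T 49 against Tet1KO and -0.024 in N1300T 49 against DKO. With a library left out, Tet1 ran from -0.016 to 0.18 in N1300T and from -0.046 to 0.15 in N1300T 81, both against Tet1KO. Against DKO, Tet3 ran from -0.11 to 0.023 in N1300T, from -0.13 to 0.080 in N1300T 49 and from -0.17 to 0.029 in N1300T 81. Between N1300T 49 and 81 the ranges were -0.028 to 0.14 for Tet1, -0.13 to 0.0051 for Tet2, -0.066 to 0.14 for Tet3 and -0.12 to 0.022 for Tdg. The log2 ratio of Tet3 to Tdg in N1300T against DKO changed sign with Tet1 as denominator (0.063). The ratio of Tet2 to Tdg in N1300T against Tet1KO reached exact p = 0.0238 over the summed copies (-0.19) and ran from -0.34 to -0.16 with a library left out. With a library left out, the Tet2 ratio in N1300T against DKO ran from 0.31 to 0.42 and the Tet3 ratio in N1300T against Tet1KO from -0.79 to -0.53, with exact p up to 0.0714, the smallest that fewer libraries allow. Of 32 calls of list genes and neighbours, 14 held under all 22 alternatives and 18 were lost in at least 1; none changed sign.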
